A study of Mus musculus with 10 samples.

Results

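The receptors that set the strength of a T cell response alongside the T cell receptor were examined in thymic invariant natural killer T (iNKT) cells. They were the costimulatory receptors Cd28 and Icos and the coinhibitory receptors Ctla4, Lag3, Tigit, Havcr2 (TIM-3), Btla and Cd160, with PD-1 left aside. Their members were the accessible regions that overlapped the gene body of 1 of these 8 genes or lay within 50 kb of its transcription start. The rule gave 164 of the 94823 regions measured, 300 to 1985 bp wide, of which 101 lay outside the member genes, 46 in introns, 12 on coding exons and 5 on untranslated exons only. Icos held 39 regions, Cd28 34, Lag3 24, Tigit 22, Cd160 13, Ctla4 12, Havcr2 12 and Btla 10, and 2 regions counted for both Ctla4 and Icos.

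On GRCm38 (mm10, GENCODE M21), the costimulatory genes and Ctla4 lie in one stretch of the + strand of chromosome 1: Cd28 (ENSMUSG00000026012) at chr1:60746358-60773359, Ctla4 (ENSMUSG00000026011) at chr1:60909025-60915832 and Icos (ENSMUSG00000026009) at chr1:60977927-61000320. Tigit (ENSMUSG00000071552, - strand) at chr16:43648867-43664146 and Btla (ENSMUSG00000052013, + strand) at chr16:45224315-45252892 share chromosome 16. Lag3 (ENSMUSG00000030124) lies at chr6:124904361-124911705 on the - strand, Havcr2 (ENSMUSG00000020399) at chr11:46454935-46481255 on the + strand, and Cd160 (ENSMUSG00000038304) at chr3:96798763-96829351 on the - strand.

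CD28 binds CD80 and CD86 on antigen-presenting cells and lowers the amount of antigen needed for activation, while CTLA-4 binds the same ligands more tightly and restrains the response. ICOS, a CD28 relative, is induced by activation and supports helper and cytokine-secreting functions. LAG-3, TIGIT, TIM-3, BTLA and CD160 are inhibitory in T cells, although CD160 and BTLA share a ligand and CD160 can also act as an activating receptor on natural killer cells. CTLA-4 and LAG-3 are little expressed on resting T cells and are induced by signalling through the T cell receptor.

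ATAC-seq reads open DNA as the places where a transposase could insert adapters, and the value of a region was its number of insertions. The cells were thymic iNKT1 (CD27+ CD122+), the interferon-producing subset, and iNKT2 (CD27+ CD122-), the interleukin-4-producing subset, sorted from BALB/c and SKG animals. SKG carries a hypomorphic allele of the kinase Zap70 on the BALB/c background and signals weakly through the T cell receptor. All groups thus shared the BALB/c background, and the animals were young adults, matched for age within each experiment. There were 2 BALB/c iNKT1, 2 SKG iNKT1, 3 BALB/c iNKT2 and 3 SKG iNKT2 libraries. The labels do not say which libraries came from separate animals, so the p-values measure the spread between these libraries, which may be technical. In such bulk libraries a region open in fewer cells and a region less open in each cell cannot be told apart.

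The libraries held 14988590 to 36342635 insertions inside regions, with 40 to 120 in the median region. Replicate 1 of iNKT2 stood apart from replicates 2 and 3 in both genotypes (chi-square per region of 8.49 to 12.2 for pairs that include it, against 2.59 and 3.32 for the others). Promoters of the iNKT1 markers Tbx21, Ifng and Il2rb summed to 163 to 180 CPM (insertions per 1000000) in iNKT1 and 34.8 to 55.0 in iNKT2 libraries, as the labels say, while those of Zbtb16, Gata3 and Il4 summed to 160 to 194 in iNKT1 and 137 to 173 in iNKT2 and did not mark iNKT2. None of 4 markers of double-positive thymocytes and none of 3 of B cells had a promoter region, and of 3 myeloid markers only Cd14 had one. Of the iNKT17 markers, the promoters of Il17a, Il23r and Ccr6 held means of 0.0321 to 0.193 CPM in the iNKT1 groups. In iNKT2, Il17a fell from 5.46 ± 0.88 CPM in BALB/c to 1.16 ± 0.57 in SKG (log2 change -2.32, edgeR adjusted p = 2.1e-04), and Ccr6 rose from 0.937 ± 0.24 to 2.72 ± 0.33 (1.51, edgeR adjusted p = 0.00722). Il23r held 4.24 ± 1.4 and 3.58 ± 0.65 (-0.23, edgeR adjusted p = 0.577). The iNKT17 marker promoters thus moved with genotype in iNKT2, in both directions, and the part of such cells in the results below was not tested.

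Sequences of 6 regions that bear on the genotype comparisons are shown first, so that their letters can be set against the values that follow. They are the reference (GRCm38, mm10, of C57BL/6J, while the cells were BALB/c), on the + strand, and at most 300 bases of a region outside every annotated exon. Capitals mark matches, on either strand, to 6 strings: NFAT (TGGAAA), Egr (GCGTGGG), AP-1 (TGANTCA), Runx (TGTGGT), T-box (GGTGTGA) and Tcf (CTTTGAA). The first set fell in SKG cells. Lag3 is transcribed from the - strand, so that its start lies just left of the first base of its promoter stretch, which is read away from the gene.
Lag3 promoter, chr6:124911706-124911936: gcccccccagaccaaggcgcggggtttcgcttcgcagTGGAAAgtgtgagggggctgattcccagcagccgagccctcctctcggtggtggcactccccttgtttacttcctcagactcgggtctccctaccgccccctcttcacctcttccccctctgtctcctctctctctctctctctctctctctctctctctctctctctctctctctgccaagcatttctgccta
Ctla4, 25887 bp upstream, chr1:60882826-60883125: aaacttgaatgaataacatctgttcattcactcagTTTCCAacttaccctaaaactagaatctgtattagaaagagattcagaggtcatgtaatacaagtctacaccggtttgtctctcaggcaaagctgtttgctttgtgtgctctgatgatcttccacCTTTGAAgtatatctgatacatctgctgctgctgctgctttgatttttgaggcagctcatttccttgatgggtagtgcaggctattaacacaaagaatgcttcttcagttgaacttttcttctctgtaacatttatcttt
Cd160, 8726 bp upstream, chr3:96838077-96838376: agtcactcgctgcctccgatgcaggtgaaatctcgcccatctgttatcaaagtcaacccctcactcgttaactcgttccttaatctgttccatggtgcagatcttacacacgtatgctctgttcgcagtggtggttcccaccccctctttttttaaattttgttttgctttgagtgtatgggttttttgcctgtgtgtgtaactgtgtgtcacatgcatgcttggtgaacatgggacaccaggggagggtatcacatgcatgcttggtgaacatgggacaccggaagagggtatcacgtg
The stretch at the Lag3 promoter held 1 NFAT string. The distal Ctla4 stretch held 1 NFAT and 1 Tcf string, and the Cd160 stretch held none of the 6. The Lag3 region 1572 bp upstream, also called lower in SKG iNKT2, is not shown, and its stretch held 2 NFAT strings. The second set held 2 distal regions in which the genotype change differed between iNKT1 and iNKT2, and the Ctla4 promoter for comparison.
Tigit, 33597 bp upstream, chr16:43697776-43698075: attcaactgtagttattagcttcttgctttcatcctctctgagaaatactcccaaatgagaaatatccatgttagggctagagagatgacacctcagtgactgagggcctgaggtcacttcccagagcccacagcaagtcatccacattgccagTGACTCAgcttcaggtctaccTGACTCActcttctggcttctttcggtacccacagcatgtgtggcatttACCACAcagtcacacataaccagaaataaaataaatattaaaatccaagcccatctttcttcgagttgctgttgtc
Cd28, 21595 bp downstream, chr1:60768095-60768394: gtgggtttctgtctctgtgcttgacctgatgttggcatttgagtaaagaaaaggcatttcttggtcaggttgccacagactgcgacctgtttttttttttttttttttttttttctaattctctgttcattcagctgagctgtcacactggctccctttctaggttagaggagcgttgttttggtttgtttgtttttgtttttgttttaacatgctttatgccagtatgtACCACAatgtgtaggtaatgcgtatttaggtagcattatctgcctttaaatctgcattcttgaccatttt
Ctla4 promoter, chr1:60908752-60909024: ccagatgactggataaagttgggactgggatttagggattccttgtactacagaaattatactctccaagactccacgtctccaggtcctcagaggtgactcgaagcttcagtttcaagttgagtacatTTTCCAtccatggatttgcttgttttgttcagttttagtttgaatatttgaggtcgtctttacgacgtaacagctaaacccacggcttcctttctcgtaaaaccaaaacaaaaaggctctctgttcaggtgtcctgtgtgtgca
The distal Tigit stretch held 2 AP-1 strings and 1 Runx string, the Cd28 intronic stretch 1 Runx string and the Ctla4 promoter 1 NFAT string. The Tigit promoter, where the genotype change also differed, is not shown, and its stretch held 1 AP-1 and 1 Runx string. These letters are a description of the reference and say nothing of which factor was bound.

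To see how open each gene was to begin with, the region holding the transcription start was compared between the 8 genes as CPM per kb of region. In BALB/c iNKT1 the level was highest for Tigit (126) and then fell over Cd28 (104), Icos (75.3), Btla (33.5), Ctla4 (31.3), Cd160 (19.1), Havcr2 (8.01) and Lag3 (3.47). The libraries of Btla and Ctla4 overlapped, and those of the other neighbours in that order did not. In BALB/c iNKT2 the order was Cd28 (60.8), Icos (57.1), Tigit (51.0), Btla (43.7), Ctla4 (29.4), Lag3 (14.3), Cd160 (10.5) and Havcr2 (4.51), with Icos overlapping both Cd28 and Tigit. The costimulatory genes were thus among the most open promoters in both subsets, and the Havcr2 promoter was among the least. These are levels of open DNA, not of transcript or protein.

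**Figure D1:**
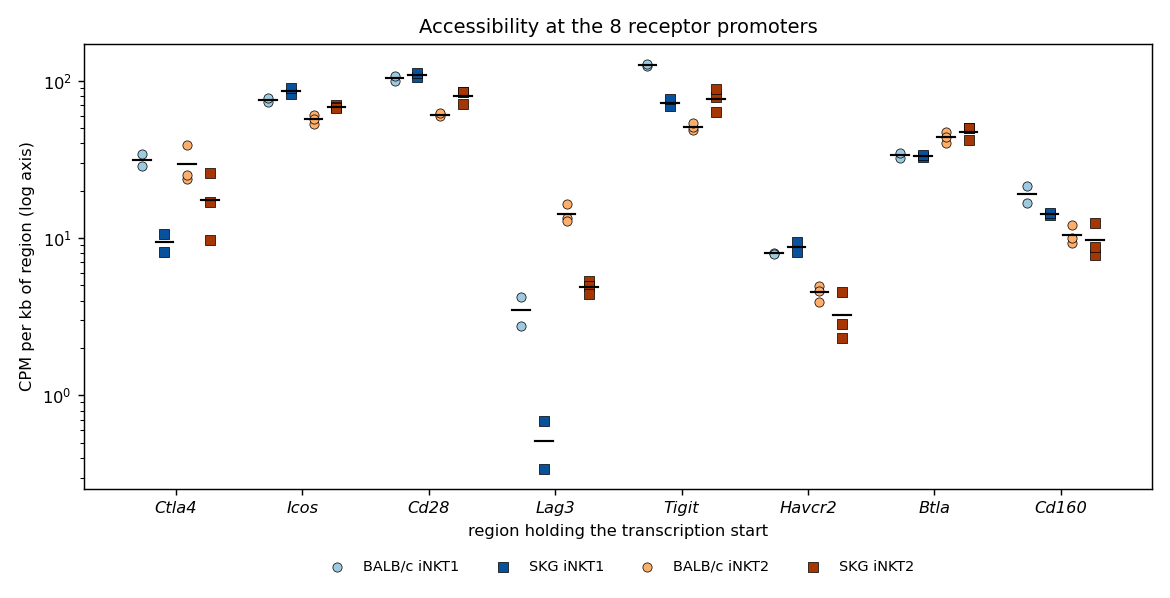
CPM per kb of the region holding the transcription start of each receptor gene, on a log axis, with 1 point per library (2 per iNKT1 group, 3 per iNKT2 group) and the group mean as a bar. Lag3 spans the widest range, from a mean of 0.513 in SKG iNKT1 to 14.3 in BALB/c iNKT2, while Tigit is highest in BALB/c iNKT1 (126).

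The first question was how the subsets differ at these loci. A region was called when its Benjamini-Hochberg adjusted p, from edgeR's quasi-likelihood test over all 94823 regions, was under 0.01 and its change at least 4-fold. In BALB/c, 21 of the 164 member regions were called higher in iNKT2 (12.8%, against 15.5% of all regions) and 7 lower (4.27%, against 6.36%). In SKG, 23 were called higher (14.0%, against 10.2%) and 5 lower (3.05%, against 6.96%). The shares of members called lay near the background. Under voom with quantile normalization the counts of higher and lower regions were 14 and 11 in BALB/c and 15 and 6 in SKG, with no share of all regions taken for voom. Over all regions, 14725 were called higher and 6029 lower in BALB/c iNKT2, so higher calls were the more common ones. By gene, all 10 Icos and Cd28 regions called in BALB/c were higher in iNKT2. So were all 4 of Lag3, all 3 of Havcr2 and the 1 of Ctla4. All 4 of Tigit were lower, and Btla (1 higher, 1 lower) and Cd160 (2 and 2) went both ways. The calls per gene are few, and whether the direction went by gene was not tested. At an adjusted p under 0.01 of any size, Cd28 had 5 regions higher and 12 lower in BALB/c iNKT2, and Ctla4 1 and 2. Icos had 19 and 2, Lag3 7 and 2, Havcr2 4 and 2, Tigit 1 and 13, Btla 2 and 2, and Cd160 2 and 7.

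Icos, whose product is typical of helper-like cells, had regions mostly above iNKT1 in iNKT2. Of its 39 regions, 35 had a level above iNKT1 in BALB/c and 34 in SKG, against 91 and 101 of all 164 members. In BALB/c 6 were called higher (15.4%, against 15.5% of all regions), and in SKG 10 (25.6%, against 10.2%). The region 23968 bp downstream of the start held 2.57 and 1.81 CPM in BALB/c iNKT1, 1.86 and 2.50 in SKG iNKT1, 17.2, 19.0 and 18.2 in BALB/c iNKT2, and 10.0, 14.2 and 14.2 in SKG iNKT2. Every iNKT2 library lay above every iNKT1 library, and the log2 change was 3.03 ± 0.24 (SE) in BALB/c (edgeR adjusted p = 7.1e-08) and 2.55 ± 0.25 in SKG (edgeR adjusted p = 8.2e-07). The Icos promoter held 52.9 ± 1.8 CPM (SD, n = 2) in BALB/c iNKT1 and 40.1 ± 2.7 (SD, n = 3) in BALB/c iNKT2, a log2 change of -0.40 (edgeR adjusted p = 0.00919) that 3 of 16 alternative settings kept and that was 0.04 under voom with quantile normalization.

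Cd28, the main costimulatory receptor of T cells, had a strong iNKT2 region far from its promoter. At 32136 bp upstream, iNKT1 libraries of both genotypes held 0.00 to 0.529 CPM, BALB/c iNKT2 held 11.9, 13.9 and 10.3, and SKG iNKT2 held 7.93, 7.49 and 6.61. No library of one subset came near the other, and the log2 change was 4.58 ± 0.35 in BALB/c and 5.48 ± 0.47 in SKG (edgeR adjusted p = 5.4e-08 and 2.2e-07). The Cd28 promoter fell instead, from 108 ± 5.5 CPM in BALB/c iNKT1 to 63.3 ± 1.4 in BALB/c iNKT2 (log2 change -0.77 ± 0.12, edgeR adjusted p = 6.1e-05). In SKG it stood at 113 ± 5.2 in iNKT1 and 83.7 ± 8.5 in iNKT2 (log2 change -0.44 ± 0.12, edgeR adjusted p = 0.00828), a call that 12 of 16 alternative settings did not keep.

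Among the coinhibitory genes, Ctla4 had 1 called region, the distal one 25887 bp upstream, which was nearly closed in iNKT1. It held 0.0299 and 0.0882 CPM in BALB/c iNKT1 and 2.29, 2.91 and 1.61 in BALB/c iNKT2, a log2 change of 5.28 ± 0.78 (edgeR adjusted p = 3.1e-05). The iNKT1 value rests on 3 insertions against 222 in iNKT2, a ratio of 44.2 with an exact 95% interval of 14.9 to 216 that covers counting error only. The Ctla4 promoter, at 14.0 ± 1.7 CPM in BALB/c iNKT1 and 13.1 ± 3.7 in BALB/c iNKT2, overlapped between the subsets (log2 change -0.09, edgeR adjusted p = 0.807).

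Lag3, whose product binds MHC class II, was the one gene of the 8 whose promoter was itself called, and it was higher in iNKT2. It held 2.36 and 1.54 CPM in BALB/c iNKT1 and 9.32, 7.59 and 7.22 in BALB/c iNKT2 (log2 change 2.02 ± 0.26, edgeR adjusted p = 6.9e-06). That value is just past the 4-fold limit, and the call was lost without BALB/c iNKT1 replicate 2 or BALB/c iNKT2 replicate 1. In SKG it went from 0.386 and 0.193 CPM to 3.00, 2.80 and 2.50 (log2 change 3.25 ± 0.40, edgeR adjusted p = 7.3e-06). The Lag3 region of smallest adjusted p, 13011 bp downstream of the start and past the end of the gene, rose from 0.385 ± 0.047 to 3.25 ± 0.63 CPM in BALB/c (log2 change 3.05 ± 0.33, edgeR adjusted p = 1.7e-06) and from 0.514 ± 0.090 to 6.38 ± 1.4 in SKG. The Lag3 window also holds the starts of Cd4, Gpr162, Mlf2 and Ptms, and regions near those starts cannot be assigned to Lag3 alone.

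Tigit, which shares the ligand CD155 with the activating receptor CD226, was lower in BALB/c iNKT2 at its promoter and in an intron. The promoter held 114 and 117 CPM in BALB/c iNKT1 and 44.7, 47.0 and 49.3 in BALB/c iNKT2, which did not overlap (log2 change -1.30 ± 0.14, edgeR adjusted p = 1.4e-06). In an intron 8591 bp downstream, BALB/c iNKT1 held 6.30 and 4.89 CPM, SKG iNKT1 4.18 and 4.55, and the 6 iNKT2 libraries between 0.106 and 0.505. The log2 change there was -4.41 ± 0.36 in BALB/c (edgeR adjusted p = 9.7e-08) and -3.16 ± 0.36 in SKG (edgeR adjusted p = 3.3e-06).

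Havcr2, the receptor of exhausted and terminally differentiated type 1 cells, had the 3 called regions upstream or in an intron. At 49579 bp upstream it held 2.84 and 1.85 CPM in BALB/c iNKT1 against 12.7, 9.34 and 9.81 in BALB/c iNKT2 (log2 change 2.16 ± 0.27, edgeR adjusted p = 7.0e-06). The promoter was lower in iNKT2, at 2.58 ± 0.03 against 1.45 ± 0.17 CPM in BALB/c (log2 change -0.83, edgeR adjusted p = 0.0217) and 2.83 ± 0.28 against 1.04 ± 0.37 in SKG (log2 change -1.38 ± 0.32, edgeR adjusted p = 0.00204), and passed only in SKG, where the call was lost without SKG iNKT1 replicate 1 and with the replicate block. The region 49579 bp upstream lies on a coding exon of the neighbouring gene Fam71b, and the window also holds the start of Med7.

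Btla and Cd160, receptors of the same ligand (HVEM, the product of Tnfrsf14), each carried regions of both subsets. At Btla the region 19582 bp upstream fell from 7.95 and 7.71 CPM to 1.38, 0.873 and 0.948 in BALB/c (log2 change -2.87 ± 0.25, edgeR adjusted p = 2.0e-07), and the one 36966 bp downstream rose from 0.657 and 0.132 to 3.76, 7.33 and 6.93 (log2 change 3.79 ± 0.46, edgeR adjusted p = 4.2e-06). The Btla promoter was 57.5 ± 2.8 CPM in BALB/c iNKT1 and 75.0 ± 5.9 in BALB/c iNKT2 (log2 change 0.39, edgeR adjusted p = 0.0175), and in SKG 56.6 ± 1.1 and 81.3 ± 8.2 (log2 change 0.52 ± 0.13, edgeR adjusted p = 0.004), a call lost in 6 of 16 alternative settings, without either SKG iNKT1 library or SKG iNKT2 replicate 2 or 3 among them. At Cd160 the region 4009 bp upstream of the nearest start fell from 6.69 and 4.80 CPM to 0.753, 0.344 and 0.247 (log2 change -3.65 ± 0.43, edgeR adjusted p = 3.9e-06). Regions 8422 and 8726 bp upstream, neighbours on the genome, rose from 0.296 ± 0.045 to 2.11 ± 0.28 and from 0.251 ± 0.14 to 1.98 ± 0.08 CPM (log2 changes 2.79 ± 0.50 and 3.03 ± 0.65, edgeR adjusted p = 1.7e-04 and 8.6e-04). The Cd160 promoter fell from 8.61 ± 1.5 to 4.72 ± 0.68 CPM (log2 change -0.87 ± 0.22, edgeR adjusted p = 0.0031), a call lost in 6 of 16 settings, without BALB/c iNKT1 replicate 1 or BALB/c iNKT2 replicate 2 or 3 among them. The 3 upstream regions lie in introns of the neighbouring gene Pdzk1.

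The subset changes were then set side by side in the 2 genotypes. Of the 28 regions called in BALB/c and the 28 called in SKG, 19 were called in both, 67.9% of each list, all in the same direction, and each of the 28 BALB/c calls had the same sign in SKG. Over all regions, 57.0% of the BALB/c calls and 72.8% of the SKG calls were called in both in the same direction, and 96.9% of the BALB/c calls had the same sign in SKG. The group means of these comparisons come from different libraries. The spread and the scaling came from 1 fit over all 10 libraries, so the 2 sets of calls are not independent. Called in SKG and not in BALB/c were, among others, the Cd28 exonic regions 16870 and 18645 bp downstream (log2 changes 3.57 and 2.78 in SKG, 1.07 and 1.34 in BALB/c) and an Icos region 1757 bp upstream (3.98 and 1.58). Their SKG iNKT1 levels rest on 4, 13 and 7 insertions. In SKG iNKT2 the Icos region held 6.12, 2.34 and 2.02 CPM in replicates 1, 2 and 3. Called in BALB/c and not in SKG were, among others, 2 Tigit regions, 4806 bp downstream (-2.54 in BALB/c, -0.99 in SKG) and 33597 bp upstream (-3.11 and -0.05). A call in one genotype only does not show that the change differed, and the test of that difference is given below.

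**Figure D2:**
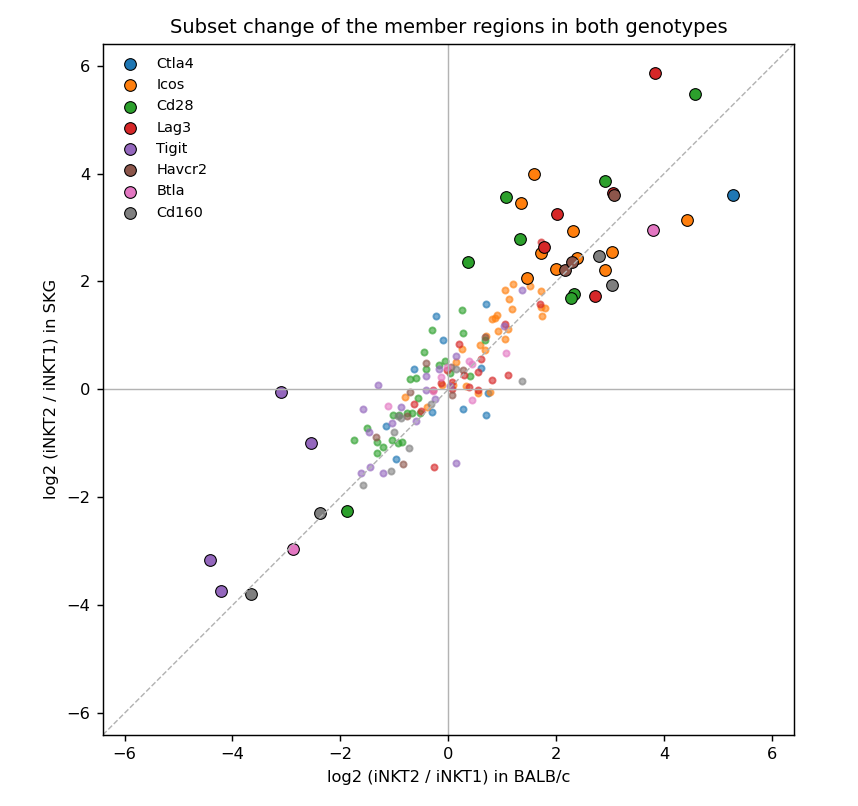
Log2 change from iNKT1 to iNKT2 of the 164 member regions in BALB/c (x axis) and SKG (y axis), coloured by gene, with called regions large and outlined, and a dashed line where both are equal. Most called regions lie near the line, with Icos, Cd28 and Lag3 at the upper right and Tigit at the lower left, and the Tigit region at -3.11 on the x axis lies near 0 on the y axis. The Lag3 region with the highest SKG value had 0 insertions in SKG iNKT1, and its fitted change there is not a bound.

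The second question was how SKG cells, which carry the hypomorphic Zap70 allele, differed from BALB/c cells at these loci within each subset. In iNKT2, 3 of the 164 members were called lower in SKG (1.83%, against 4.73% of all regions) and 0 higher (against 0.252%). In iNKT1, 1 was called lower (0.610%, against 0.732%) and 0 higher (against 0.281%). Where edgeR called 0 higher, DESeq2 called 0 in both subsets, and voom called 2 in iNKT2, beside 4 lower, and 0 in iNKT1. At an unadjusted p under 0.05 in edgeR, 33 members were higher and 35 lower in iNKT2, and 3 higher and 30 lower in iNKT1. No share of all regions was taken at that threshold. The shares of members called lower were at or under those of all regions. With an adjusted p under 0.01 at any size, iNKT2 had 16 members lower (9.76%, against 10.1%) and 5 higher (3.05%, against 4.02%), and iNKT1 had 4 lower (2.44%, against 1.42%) and 0 higher (against 0.662%). Of the 16 lower regions, 5 belonged to Lag3, 4 to Ctla4, 3 to Cd160, 2 to Icos (1 of them shared with Ctla4), and 1 each to Cd28, Tigit and Btla, and 14 lay outside the member genes.

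At Lag3 the changes clustered around the start. The promoter held 2.36 and 1.54 CPM in BALB/c iNKT1 against 0.386 and 0.193 in SKG iNKT1, and 9.32, 7.59 and 7.22 in BALB/c iNKT2 against 3.00, 2.80 and 2.50 in SKG iNKT2. SKG libraries were the lower ones in both subsets, with no overlap. The log2 change was -2.76 ± 0.43 in iNKT1 (edgeR adjusted p = 0.00126) and -1.53 ± 0.22 in iNKT2 (edgeR adjusted p = 1.2e-04, under 4-fold), and the difference between them did not pass (1.23 ± 0.50, edgeR adjusted p = 0.187). The iNKT1 call rests on 114 insertions in BALB/c and 9 in SKG. It was lost without BALB/c iNKT1 replicate 1 (-2.39, edgeR adjusted p = 0.028), SKG iNKT1 replicate 1 (-3.33, edgeR adjusted p = 0.0143) or SKG iNKT1 replicate 2 (-2.35, edgeR adjusted p = 0.0351), and under limma voom with quantile normalization (-1.98, adjusted p = 0.0733).

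Just upstream of it, 1572 bp from the start, the BALB/c iNKT2 libraries held 1.85, 1.46 and 1.48 CPM and the SKG iNKT2 libraries 0.416, 0.276 and 0.0674. The groups did not overlap, and the log2 change was -2.48 ± 0.48 (edgeR adjusted p = 0.00182), a call that all 15 alternative settings that tested it kept. Both SKG iNKT1 libraries held 0 insertions here, and BALB/c iNKT2 was at least 16.6-fold higher than SKG iNKT1, taking 3 insertions over both libraries as the floor. Another 3 Lag3 regions fell in SKG iNKT2 by less: 4655 bp upstream (log2 change -0.74), on a coding exon 920 bp downstream (-1.46) and 9559 bp downstream, past the gene's end (-1.93). The upstream one of these lies in an intron of Ptms. One Lag3 region, 13011 bp downstream, rose from 3.25 ± 0.63 to 6.38 ± 1.4 CPM (log2 change 0.98 ± 0.22, edgeR adjusted p = 0.00427).

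At Ctla4 the distal region 25887 bp upstream, the same one that marked iNKT2 above, was lower in SKG. It held 2.29, 2.91 and 1.61 CPM in BALB/c iNKT2 and 0.535, 0.0919 and 0.742 in SKG iNKT2, without overlap (log2 change -2.36 ± 0.49, edgeR adjusted p = 0.00266). The call was lost without BALB/c iNKT2 replicate 2 (-2.19, edgeR adjusted p = 0.0197) or SKG iNKT2 replicate 2 (-1.88, under 4-fold). In iNKT1 it was close to 0 in both genotypes, with 3 and 1 insertions. Of the 12 Ctla4 regions, 11 had a lower level in SKG iNKT1 and 9 in SKG iNKT2. Their median log2 change was -0.54 and -0.81, against -0.03 and 0.01 over all regions and -0.205 and 0.073 over the 164 members. The promoter held 15.2 and 12.8 CPM in BALB/c iNKT1 against 3.66 and 4.75 in SKG iNKT1 (log2 change -1.73 ± 0.36, edgeR adjusted p = 0.0106), without overlap but past the limit of 0.01. In iNKT2 it held 17.4, 10.7 and 11.3 against 11.5, 4.36 and 7.55, which overlapped (log2 change -0.73, edgeR adjusted p = 0.0619).

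At Cd160 the call was the region 8726 bp upstream, in an intron of Pdzk1, with 1.98, 2.06 and 1.90 CPM in BALB/c iNKT2 and 0.684, 0.0919 and 0.270 in SKG iNKT2 (log2 change -2.35 ± 0.53, edgeR adjusted p = 0.00435). The groups did not overlap, but the call was lost without BALB/c iNKT2 replicate 2 or 3, or without SKG iNKT2 replicate 2 or 3 (log2 changes -2.38, -2.44, -1.91 and -2.22, edgeR adjusted p = 0.0177, 0.0133, 0.0157 and 0.018). Its neighbour 8422 bp upstream fell with it (-1.51 ± 0.39, edgeR adjusted p = 0.00943), as did the region 18303 bp upstream (-0.73 ± 0.19, edgeR adjusted p = 0.00893), both also in introns of Pdzk1. Of the 13 Cd160 regions, 12 had a lower level in SKG iNKT1 and 11 in SKG iNKT2. A lower level in SKG iNKT1 was common among the members (113 of 164), as at Tigit (20 of 22) and Cd28 (26 of 34). In SKG iNKT2, 76 of the 164 were lower. The share of all regions with a lower level was not taken, and neighbouring regions are not independent.

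**Figure D3:**
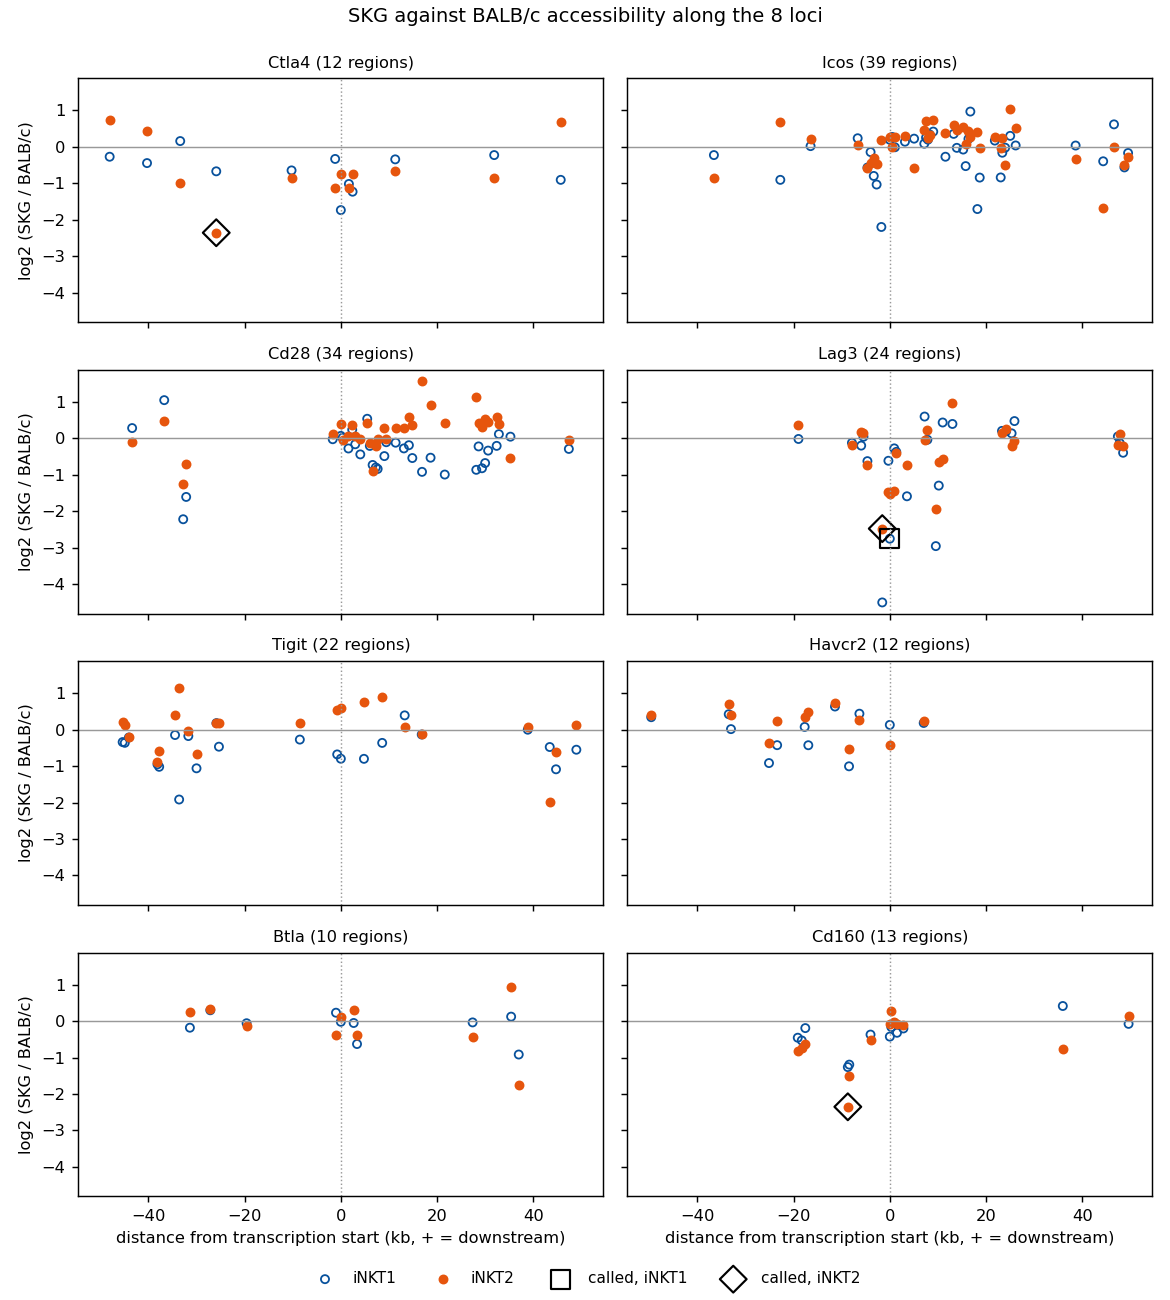
Log2 ratio of SKG over BALB/c for each member region against its signed distance from the nearest transcription start of the gene in kb, for iNKT1 (open circles) and iNKT2 (filled), with a square or diamond around called regions. The called regions are the Lag3 promoter in iNKT1 and the upstream Lag3, Ctla4 and Cd160 regions in iNKT2, and most points of Icos, Havcr2 and Btla lie near 0. The lowest Lag3 point, near -4.5, had 0 insertions in SKG iNKT1 and is not a bound.

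Icos, Cd28, Havcr2 and Btla had no called region between the genotypes. Smaller changes past the adjusted p in iNKT2 were the Icos regions 44335 bp downstream, which fell from 10.0 ± 0.68 to 3.10 ± 0.60 CPM (log2 change -1.68 ± 0.26, edgeR adjusted p = 2.3e-04), and 25017 bp downstream, which rose from 6.98 ± 1.3 to 14.4 ± 0.62 (1.04 ± 0.20, edgeR adjusted p = 0.00133). At Cd28 the region 32755 bp upstream fell (log2 change -1.26), and at Btla the region 36966 bp downstream fell (-1.75) while the one 35386 bp downstream rose (0.92). At Havcr2 the region 33470 bp upstream rose (0.70). The Icos and Cd28 promoters differed little in size, with log2 changes of 0.20 and 0.07 in iNKT1 and 0.26 and 0.40 in iNKT2 (edgeR adjusted p = 0.523, 0.876, 0.0893 and 0.0146). Those of Havcr2, Btla and Cd160 did not pass in either subset (edgeR adjusted p between 0.317 and 0.97).

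The labels do not pair the iNKT2 libraries of the genotypes, and same-numbered ones deviated together clearly only for replicate 1 (r = 0.446). For replicates 2 and 3 the r was as high across numbers as within them. With the number as a block, taken as an alternative, the called regions in SKG iNKT2 went from 3 to 5. The 3 above stayed, and the Tigit region 43407 bp downstream (log2 change -2.03, from -1.99 without the block) and the Lag3 region 9559 bp downstream (-2.02, from -1.93) joined them. That Tigit region lies past the end of Tigit, on an untranslated exon of Zbtb20, and cannot be assigned to Tigit alone. Under the block the promoters of Ctla4 (log2 change -0.81, edgeR adjusted p = 4.2e-04) and Cd28 (0.40, edgeR adjusted p = 2.2e-04) also passed an adjusted p of 0.01. Leaving out SKG iNKT2 replicate 1, which stood apart, gave 6 called regions, and leaving out SKG iNKT2 replicate 2 gave 1. Leaving out BALB/c iNKT2 replicate 1 gave 5.

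**Figure D4:**
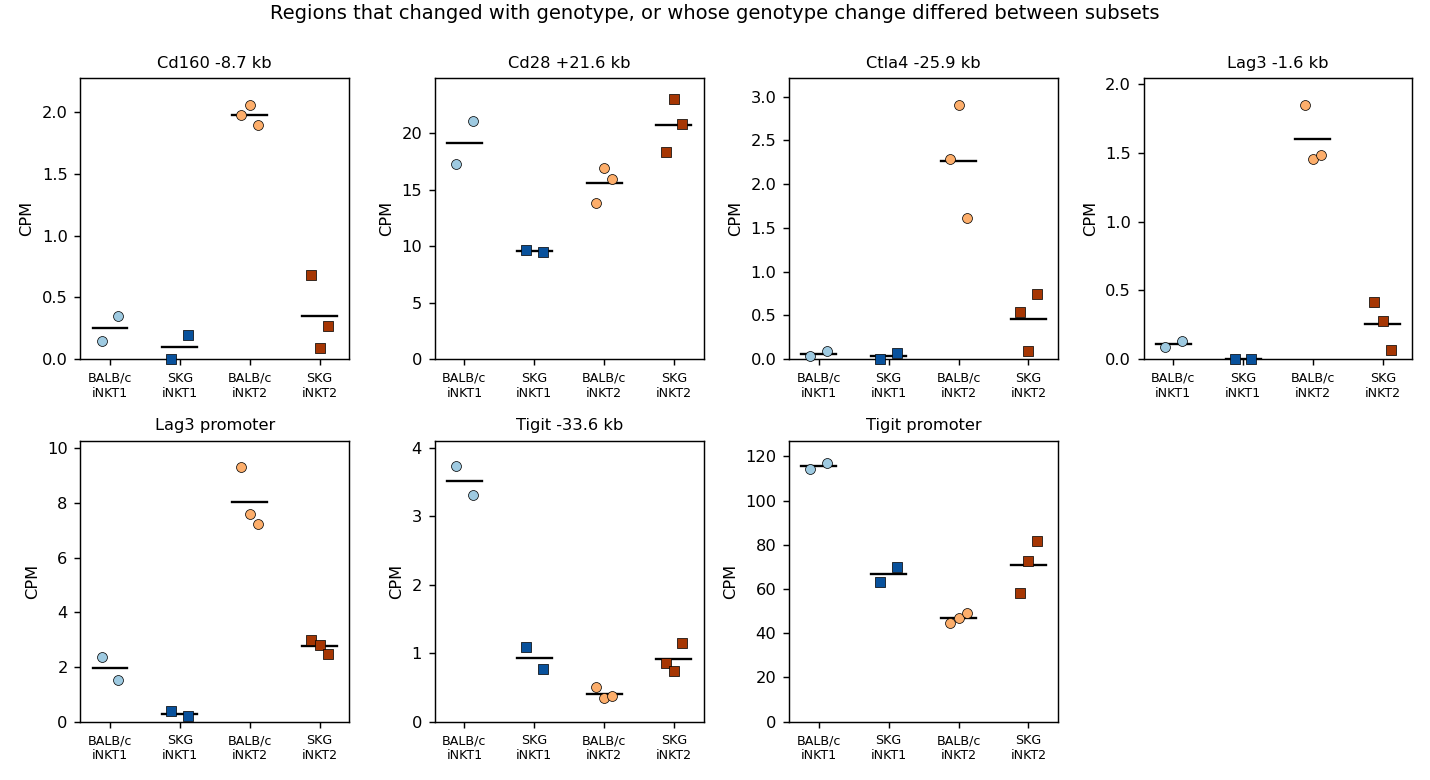
CPM per library, with the group mean as a bar, of the 4 member regions called between SKG and BALB/c and the 3 whose genotype change differed between the subsets. In the upstream Lag3, Ctla4 and Cd160 panels the SKG iNKT2 libraries lie below all BALB/c iNKT2 libraries, and in the 2 Tigit panels SKG is below BALB/c in iNKT1 and above it in iNKT2.

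Whether the genotype acted alike in both subsets was tested as the difference of the 2 genotype changes. Of the 164 members, 1 was called (0.610%, against 0.189% of all regions higher in iNKT2 than in iNKT1) and 0 in the other direction (against 0.341%, and 0 by DESeq2 and voom, with 6 at an unadjusted p under 0.05 in edgeR). With an adjusted p under 0.01 at any size there were 3 (1.83%, against 0.446%) and 0 (against 0.479%). At an unadjusted p under 0.05 in edgeR, 30 members lay in the called direction, with no share of all regions taken. At the Tigit promoter SKG iNKT1 held 63.2 and 70.1 CPM against 114 and 117 in BALB/c, and SKG iNKT2 58.1, 72.8 and 81.9 against 44.7, 47.0 and 49.3. SKG was lower in iNKT1 (log2 change -0.80 ± 0.16, edgeR adjusted p = 0.00698) and higher in iNKT2 (0.59 ± 0.13, edgeR adjusted p = 0.00321), a difference of 1.39 ± 0.20 (edgeR adjusted p = 0.00213). In SKG the libraries of both subsets overlapped at this promoter (log2 change from iNKT1 to iNKT2 of 0.09 ± 0.14, edgeR adjusted p = 0.634), while in BALB/c they did not. Leaving out any 1 of the 4 iNKT1 libraries left the difference between 1.32 and 1.47 and took its edgeR adjusted p to between 0.0147 and 0.0295. The genotype calls themselves were lost in 7 of 16 alternative settings in iNKT1, each a left-out library of either subset, and in 6 of 16 in iNKT2, those without replicate 2 or 3 of either genotype's iNKT2 among them.

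The distal Tigit region 33597 bp upstream showed the same signs at a lower level. It held 3.73 and 3.31 CPM in BALB/c iNKT1, 1.09 and 0.770 in SKG iNKT1, 0.502, 0.344 and 0.371 in BALB/c iNKT2, and 0.862, 0.735 and 1.15 in SKG iNKT2. Only BALB/c iNKT1 stood out, and the difference of the genotype changes was 3.05 ± 0.52 (edgeR adjusted p = 0.00504). It was lost with library totals in place of TMM factors (2.95, edgeR adjusted p = 0.0108) and without 7 of the 10 libraries, each of the 4 iNKT1 libraries among them. The Cd28 region in an intron 21595 bp downstream of the start held 17.3 and 21.1 CPM in BALB/c iNKT1, 9.70 and 9.50 in SKG iNKT1, 13.8, 17.0 and 16.0 in BALB/c iNKT2, and 18.3, 23.0 and 20.8 in SKG iNKT2. Its change was -0.995 ± 0.19 in iNKT1 (edgeR adjusted p = 0.00499) and 0.41 ± 0.15 in iNKT2 (edgeR adjusted p = 0.0499), and the difference 1.40 ± 0.24 (edgeR adjusted p = 0.00502) was lost in 9 of 15 alternative settings. Within the Cd28 locus 28 of 34 regions, and within Tigit 20 of 22, had a difference above 0, as did 10 of 12 at Havcr2 and 114 of all 164 members. The median difference was 0.06 over all regions and 0.23 over the members. The share of all regions above 0 was not taken, and regions of 1 locus are not independent.

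To describe each gene by 1 value, insertions were summed over all regions of its window and tested beside the sums of all 18035 protein-coding genes with a region. Lower sums were common in iNKT2 (40.8% of genes in BALB/c and 20.2% in SKG at an edgeR adjusted p under 0.01, against 13.2% and 8.36% higher). Of the 8 members, Icos and Btla were higher in BALB/c iNKT2 and Cd28, Tigit and Cd160 lower, while in SKG Icos was higher and Cd28, Tigit and Cd160 lower. The Icos sum was 262 ± 5.5 CPM in BALB/c iNKT1 and 344 ± 16 in BALB/c iNKT2 (log2 change 0.39 ± 0.09, edgeR adjusted p = 0.00298), and 257 ± 16 and 380 ± 38 in SKG (0.57 ± 0.09, edgeR adjusted p = 7.9e-04). The Tigit sum was 456 ± 4.9 and 235 ± 11 in BALB/c (-0.96 ± 0.10, edgeR adjusted p = 2.3e-05) and 377 ± 15 and 285 ± 34 in SKG (-0.41 ± 0.10, edgeR adjusted p = 0.00678). The SKG calls of Cd28 and Tigit were lost in 13 and 10 of 17 alternative settings, and the BALB/c calls of Btla and Icos in 5 and 4, both of them without either BALB/c iNKT1 library and that of Btla also without either SKG iNKT1 library.

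Between the genotypes, 0.227% of genes had a higher and 0.383% a lower sum in SKG iNKT1, and 11.9% and 5.99% in SKG iNKT2. In iNKT1, 0 of the 8 members passed in edgeR, with 3 lower at an unadjusted p under 0.05. In iNKT2 Havcr2 did, at 92.4 ± 4.7 CPM in BALB/c and 120 ± 13 in SKG (log2 change 0.37 ± 0.09, edgeR adjusted p = 0.00958), and 14 of 17 alternative settings did not keep that call. Its largest single region, 32.9% of the insertions of the window, held the start of Med7. The Ctla4 sum was 59.9 and 56.6 CPM in BALB/c iNKT1 against 36.4 and 36.8 in SKG iNKT1, and 56.8, 51.5 and 51.6 in BALB/c iNKT2 against 41.4, 26.9 and 40.3 in SKG iNKT2. SKG was lower in both subsets without overlap (log2 changes -0.67 ± 0.18 and -0.56 ± 0.15), but neither passed (edgeR adjusted p = 0.113 and 0.0145). With the replicate block the iNKT2 sums of Ctla4 (edgeR adjusted p = 1.5e-05), Cd28, Tigit and Cd160 (edgeR adjusted p = 3.0e-04, 1.0e-04 and 0.00167) passed beside Havcr2. That block rests on replicate numbers, which the labels do not pair. The Lag3 sum was between 185 and 218 CPM in every library, and 41.8% of it came from the region at the start of Mlf2, 1.64% from the Lag3 promoter.

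**Figure D5:**
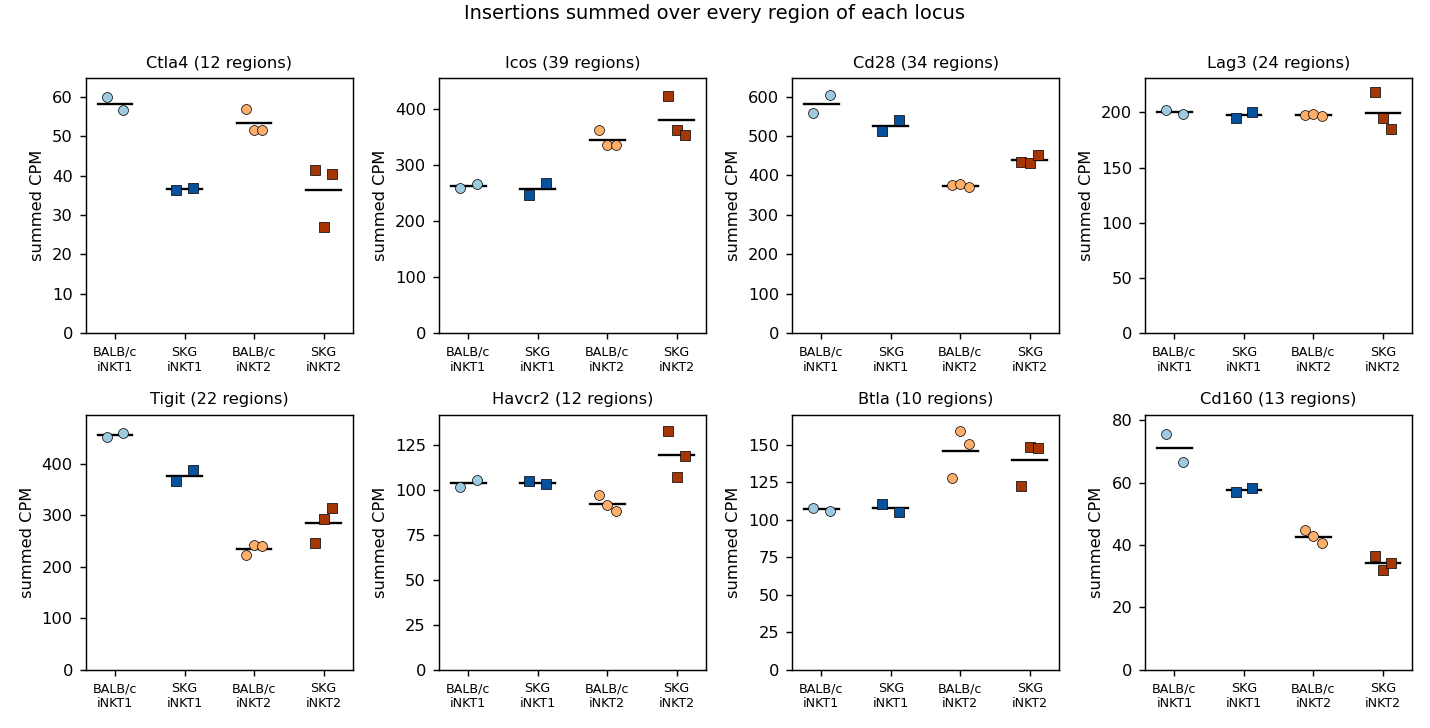
Insertions summed over every region of each receptor's window, as CPM, with 1 point per library and the group mean as a bar, and the y axes starting at 0. Tigit and Cd28 are highest in BALB/c iNKT1, Icos and Btla are higher in iNKT2, and Ctla4 is lower in SKG in both subsets, while the Lag3 sum, which holds the promoters of neighbouring genes, is flat.

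In the central 300 bases, an NFAT string occurred in 50 of 164 members (30.5%), against 23.4% of all regions, a Runx string in 61 (37.2%, against 30.3%), an AP-1 string in 26 (15.9%, against 10.6%), a T-box string in 10 (6.10%, against 5.48%) and a Tcf string in 10 (6.10%, against 7.74%). No member held the Egr string, found in 3.68% of all regions. Of the 16 members lower in SKG iNKT2 by adjusted p alone, 6 held an NFAT string (37.5%), against 37.4% of all 9619 regions lower there by the same threshold. Of the 21 members called higher in BALB/c iNKT2, 10 did (47.6%), against 29.3% of all 14725 regions called higher. These 21 lay at a median distance of 23970 bp from the start, and 16 of them outside the member genes.

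Other genes of these pathways were taken from 3 lists. Of 9 related receptors, 8 had 141 regions in all, and in BALB/c 5 were called higher (3.55%, against 15.5% of all regions) and 18 lower (12.8%, against 6.36%) in iNKT2, with a median log2 change of -0.38. The lower ones were mainly those of Cd244a (8 of 13), a SLAM family receptor, Cd101 (5 of 26) and Vsir (4 of 27), which encodes the coinhibitory receptor VISTA. Of 12 ligand genes with 154 regions, 10 regions were called higher (6.49%) and 19 lower (12.3%), with a median of -0.27, and 11 of the 19 were at Cd48, the ligand of CD244. Of 6 signalling partners with 164 regions, among them Ptpn6 and Ptpn11, the phosphatases recruited by several inhibitory receptors, 11 were called higher (6.71%) and 8 lower (4.88%). In SKG iNKT2, 1 related receptor region (at Cd101, 0.709%) and 2 signalling partner regions (at Ptpn6 and Ptpn11, 1.22%) were called lower, against 4.73% of all regions. In SKG iNKT1, 2 of the 154 ligand regions (at Nectin2 and Tnfrsf14) were called lower, against 0.732% of all regions, and 0 regions of the 3 lists were higher in either subset by edgeR. At an unadjusted p under 0.05 the 3 lists, in the order given, had 15, 8 and 11 higher regions in SKG iNKT1 and 23, 25 and 47 in SKG iNKT2. Lower at that threshold were 20, 20 and 18 in SKG iNKT1 and 21, 24 and 12 in SKG iNKT2, and no share of all regions was taken.

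For 7 members, the gene outside the window whose summed level followed the member most closely over the 10 libraries was taken as a description, with no test, since all points share library depth and scaling. Pearson's r was 0.993 for Tigit with Arid5b, 0.992 for Cd28 with Tatdn2, 0.984 for Icos with Vars2, 0.982 for Btla with Ddx18, 0.970 for Ctla4 with Crybb3, 0.966 for Havcr2 with Myl2 and 0.900 for Lag3 with Fbxw21, a gene with 1 region at under 1 CPM. Crybb3 had lower sums in SKG in both subsets (85.6 and 48.2 CPM in BALB/c and SKG iNKT1, 76.5 and 49.6 in iNKT2). It was picked for its likeness to Ctla4 over these same libraries, so that shared pattern follows from the choice.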

How the data were processed

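ATAC-seq insertions were counted by the authors in 94823 regions and deposited as 1 table of counts for 10 libraries, whole numbers although the table is described as normalized. Per the study's methods and processing notes, reads were aligned to mm10 with Bowtie 1.0, those left unmapped were trimmed with Trim Galore and aligned again, mitochondrial and duplicate reads (Picard) were removed, and MACS2 summits of short fragments, called per replicate, were widened and merged into 1 set, so that a region needs a peak in at least 1 replicate. Region starts were read as counted from 0, from the widths, and are given from 1. Genes came from GENCODE M21, distances run to the nearest annotated start, and a region holding a start is at 0.

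The members and lists were chosen with earlier results of these data known. edgeR 4.0.16 (R 4.3.3) fitted 1 mean per group with TMM factors over all 10 libraries, without a low-count filter. CPM are scaled by those factors, SE is the log2 change over the square root of F, and ± on a CPM is the SD. Promoters, regions called between genotypes, and the called region of smallest adjusted p per direction in BALB/c were named by rule, and the other regions were named after their values were seen. Same-numbered iNKT2 libraries of the genotypes deviated together (r = 0.446, 0.136 and 0.156, each above 0.1), so the number was also used as a block, although replicates 2 and 3 correlated as much across numbers (0.207 for BALB/c 3 with SKG 2, 0.139 for BALB/c 2 with SKG 3), while iNKT1 (-0.00207) and the subsets (-0.0179 to 0.0943) were not paired. Alternatives were DESeq2 1.42.0, limma 3.58.1 voom (the study's tools) with quantile normalization (chosen here), no TMM, a filter under a mean count of 36.2, only the groups compared, a 20 kb window, other thresholds, and each library left out. Some items are not reported here.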

Additional observations from a re-analysis of the deposited data

Results flagged for a closer look

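In 3 member regions the change from BALB/c to SKG differed between iNKT1 and iNKT2 by the test of that difference in edgeR over all regions. At the Tigit promoter the difference of the log2 changes (iNKT2 minus iNKT1) was 1.39, at the Tigit region 33597 bp upstream 3.05, and at the Cd28 intronic region 21595 bp downstream 1.40. In each, both SKG iNKT1 libraries lay below both BALB/c iNKT1 libraries and the SKG iNKT2 libraries lay above the BALB/c iNKT2 libraries. All 3 calls were lost when any 1 of the 4 iNKT1 libraries was left out.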

How the results depend on the processing

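Of the alternatives to counts of called member regions, 143 stayed within 1.5 times and 35 moved. With an adjusted p under 0.05 and 2-fold, 44 members were higher and 28 lower in BALB/c iNKT2, 51 and 18 in SKG iNKT2, 6 lower in SKG iNKT1, 4 higher and 15 lower in SKG iNKT2 against BALB/c, and 4 in the difference of genotype changes. The 20 kb window left 10 regions higher in BALB/c iNKT2, 14 in SKG iNKT2 and 0 in the difference. The filter on low counts left 4 lower in BALB/c iNKT2, 1 lower in SKG iNKT2 against BALB/c and 0 in the difference. Voom gave 11 lower in BALB/c iNKT2, 15 higher in SKG iNKT2, and, between genotypes, 2 higher in iNKT2 and 0 lower in iNKT1. Without TMM factors there were 5 lower in SKG iNKT2 and 0 in the difference. DESeq2 gave 5 lower in SKG iNKT2 against BALB/c, as did the replicate block, which changed no other count by over 1.5 times. Leaving out 1 library gave 0 to 1 lower in SKG iNKT1, 1 to 6 lower in SKG iNKT2 and 0 to 1 in the difference. Of the values for single regions and sums under alternatives, 539 kept their call, 145 lost it and 1 turned, the Icos promoter in BALB/c (0.041 under voom). Without TMM the median log2 change of all regions moved from 0.06 to 0.34 for iNKT2 against iNKT1 in BALB/c, from 0.14 to 0.32 in SKG, and from 0.01 to -0.12 between genotypes in iNKT2, where that of the members went from 0.07 to -0.05. The cause of these shifts was not tested. Distal regions near 1 CPM, with under 10 insertions in some libraries, are limited by depth.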
